A study of Mus musculus with 4 samples.

Results

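The genes described here drive cells into mitosis, out of it and through cytokinesis, and they were taken as a named list of 40 mouse genes. All probe sets annotated to 1 of these genes and to no other were used, which gave 82 probe sets for 39 genes, out of 45037 probe sets for 18193 genes on the arrays. Ccnb1, the gene of cyclin B1, had no such probe set, so its level was not analysed here and only its promoter window was searched. Transcripts were measured on Affymetrix mouse arrays in LSK cells, the bone marrow cells that lack lineage markers and carry c-Kit and Sca1, which hold the haematopoietic stem cells and the multipotent progenitors. Cells from the femurs of mice labelled WT B6/129 were divided at the sorter into a Hi group and a Lo group with strong and weak signal of c-Myc fused to eGFP, with 2 arrays each. Both groups thus carry the fusion, and the labels do not say whether the replicates came from separate mice, so the p-values measure only the spread between these samples. From each sample 5 ng of total RNA was amplified before labelling.

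A cell enters mitosis when cyclin-dependent kinase 1, bound to a cyclin, escapes inhibitory phosphorylation, and it leaves mitosis when the anaphase-promoting complex marks cyclins and securin for destruction. The transcripts of many of the proteins involved are low in resting cells and accumulate late in the cell cycle. Long-term haematopoietic stem cells in adult marrow are mostly quiescent, and the progenitors that follow them cycle more, so that mitotic transcripts are often used as a sign of cycling cells in this fraction. In bulk samples such as these, fewer cells with a transcript and less of that transcript per cell cannot be told apart.

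Most mitotic genes had higher levels in Hi than in Lo cells. Levels are log2 intensities of the brightest probe set of a gene, and a difference of 1 is a 2-fold difference. The median over the 39 genes was 11.39 and 11.41 on the Hi arrays and 10.62 and 10.57 on the Lo arrays. The median difference, Hi minus Lo, was 0.81, or 1.75-fold, against 0.03 over all 18193 genes. It ran from -0.05 for the cyclin gene Ccnb2 to 2.13 for the transcription factor gene Mybl2, with quartiles of 0.49 and 1.21. In 35 of the 39 genes the 2 Hi values exceeded both Lo values, a pattern seen in 30% of all genes. In 0 of the 39 were both below, against 25.4% of all genes. The groups overlapped for Ccnb2, Cdca8, Mki67 and Pttg1. A difference over 1 was found in 14 of the 39, against 3.51% of all genes. Brighter genes had smaller differences, with r = -0.583 between difference and mean level over the 39 genes. The 13 dimmest had a median difference of 1.22 and the 13 brightest 0.52. The part of signal level in the order of genes and roles was not tested.

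**Figure D1:**
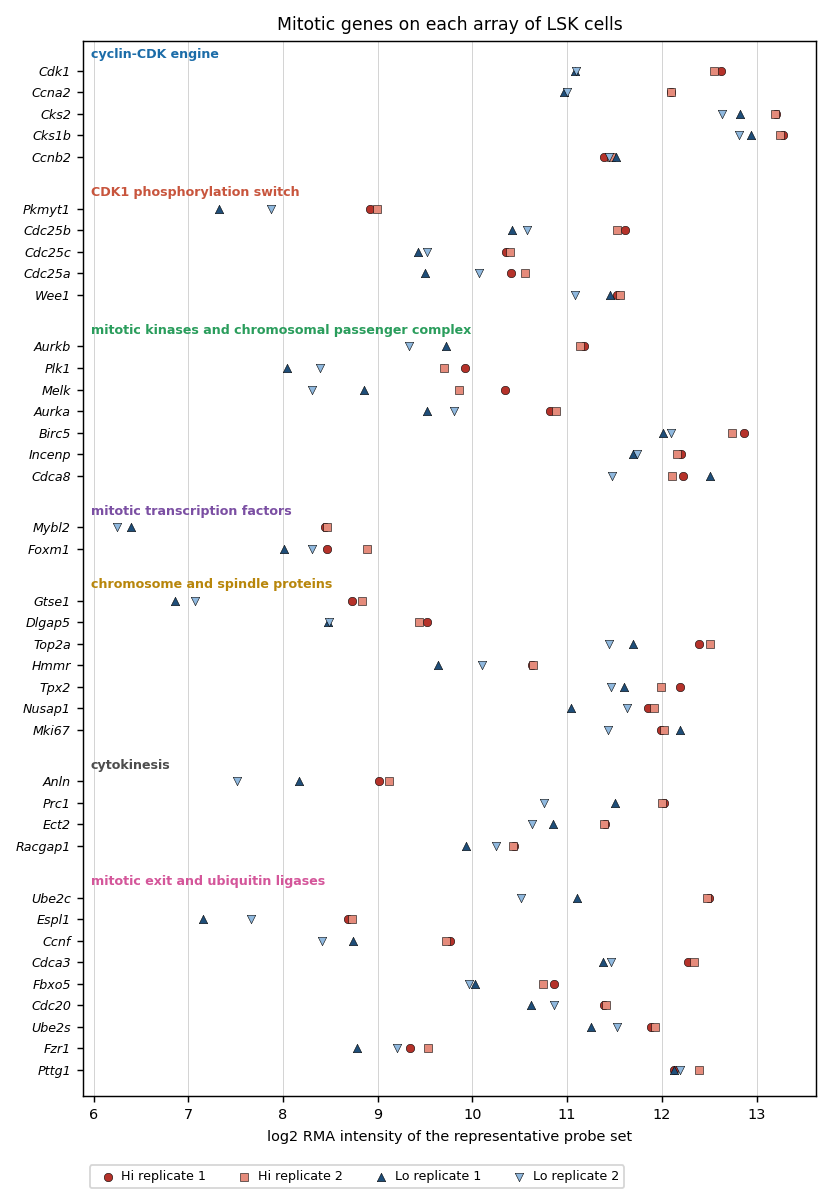
The log2 intensity (x axis) of the brightest probe set of each of 39 mitotic genes (rows, grouped by role) on the 2 Hi and the 2 Lo arrays. In 35 genes both Hi arrays lie to the right of both Lo arrays; in Ccnb2, Cdca8, Mki67 and Pttg1 they overlap.

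No single gene passed the test over the whole table. By limma with Benjamini-Hochberg adjustment over 45037 probe sets, 0 of the 82 probe sets of these genes were called at an adjusted p of 0.05, and 0% of all probe sets were (smallest adjusted p = 0.0839). At an unadjusted p under 0.05, 53 of the 82 were higher in Hi and 0 lower, where 9.05% of all probe sets were higher. Counted by gene this was 30 of 39, against 9.25% of all genes. In 64 of the 82 probe sets both Hi arrays were above both Lo arrays, against 29.3% of all probe sets. A fit over 1 probe set per gene called 6 of the 39 genes higher, against 1.04% of all genes, namely Mybl2, Cdk1, Gtse1, Aurkb, Ccna2 and Plk1. A fit over gene means, which average every probe set annotated to the gene, called 11 higher, against 1.39% of all genes; these were the same 6 with Ccnf, Cdc25b, Cdc25c, Hmmr and Ube2c. Neither fit called a mitotic gene lower, where they called 1.18% and 1.52% of all genes lower. With 2 arrays a group an exact permutation test of a single gene cannot give a p below 0.333.

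Of the sort markers and related surface genes, 4 of 5 were measured, and the groups also differed in markers of other cell types. Kit overlapped between the groups, with log2 intensities of 11.39 and 11.58 in Hi and 11.95 and 11.55 in Lo. Ly6a, the gene of Sca1, had no probe set of its own. Ptprc, the gene of CD45, had 11.10 and 11.29 in Hi and 11.71 and 11.83 in Lo. Flt3 overlapped, and Cd34 was 0.11 higher with both Hi arrays above both Lo arrays. Of 8 measured markers of long-term stem cells, 7 were lower on both Hi arrays, against the 25.4% of all genes, and the summed intensity of the list was 7190 to 7388 in Hi and 17147 to 18950 in Lo. Of 8 erythroid markers 7 were higher on both Hi arrays, against 30% of all genes (sums of 27301 to 30340 in Hi and 15501 to 15704 in Lo). The other, Car2, was lower on both Hi arrays, with 13.41 and 13.51 in Hi and 13.575 and 13.55 in Lo. All 7 measured granulocyte-monocyte markers were higher on both Hi arrays, against the same 30% (sums of 51298 to 55283 in Hi and 22106 to 23061 in Lo). Of 9 measured markers of mature lineages 3 were higher and 3 lower on both Hi arrays, near the shares of all genes. Their sums were 14023 to 17168 in Hi and 11928 to 15720 in Lo, with S100a8 and Nkg7 the brightest of them. In these lists 0 genes stayed below the dim limit throughout. That limit is the brightest probe set for bacterial RNA on an array. As a sign of RNA quality, the Gapdh control for the 3′ end exceeded the one for the 5′ end by 0.63 and 0.66 log2 units in Hi and by 0.74 and 0.78 in Lo. The Actb controls differed likewise by 0.60 and 0.55 on the Hi arrays, against 0.84 and 0.57 on the Lo arrays, so that Lo replicate 1 stood highest and the groups overlapped. The part of these values in the mitotic differences was not tested. The arrays correlated across probe sets at r = 0.99 within Hi, 0.983 within Lo and 0.972 to 0.976 between the groups.

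The transcription factor genes Mybl2 and Foxm1 stood far apart in their differences. Mybl2 encodes B-Myb, which joins the MuvB complex in S phase to switch on mitotic genes, and Foxm1 encodes the factor that follows it in G2. Mybl2 had a log2 intensity of 8.44 and 8.47 on the Hi arrays and 6.399 and 6.25 on the Lo arrays. Its groups were separated by over 2 log2 units (2.13 ± 0.14 SE, 4.38-fold, limma adjusted p = 0.0839). A further probe set differed by 2.32. Foxm1 had 8.47 and 8.89 in Hi and 8.01 and 8.31 in Lo. Its arrays came within 0.16 of each other between the groups, and the difference was 0.51 ± 0.22 (SE, limma adjusted p = 0.343). The other Foxm1 probe sets above the dim limit differed by 0.64 and 0.91. By their brightest probe sets Mybl2 ranked 95th by difference among 18193 genes and Foxm1 1934th. For Foxm1 that probe set gave the smallest difference of those above the dim limit. The contrast between the 2 genes was not tested.

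B-Myb and FoxM1 reach mitotic promoters largely through MuvB, which binds a short element known as the cell cycle genes homology region (CHR), often with upstream CCAAT boxes bound by NF-Y. Promoter windows from RefSeq (build GRCm38.p6, 250 bases before to 50 after the gene start) were at hand for 31 of the 40 genes, in 34 windows. Ccnb1, whose level was not measured, is among the 31. On either strand, the CHR letters TTTGAA or TTCGAA stood in 21 of 31 genes (67.7%), against 21.7% of 27025 genes with such a window, or 19.2% of 32851 windows. CCAAT stood in 24 of 31 (77.4%), against 41.1% of genes and 37.4% of windows. An E2F-type sequence (TTTGGCGC, TTTCGCGC or TTTCCCGC) was in 2 of 31, Cdk1 and Cdc25a (6.45%), against 2.12% of genes and 1.84% of windows. Only these exact letters were searched, so other forms of an E2F site were missed, in Mybl2 as in the other genes. The E-box CACGTG, the core sequence that Myc and Max bind, was in 2 of 31, Anln and Espl1 (6.45%), against 8.09% of genes and 7.15% of windows. Only 2 pairs of these matches overlapped. Such matches are letters in a window, not bound sites.

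The stretches of promoter windows below hold the 2 elements in genes with large and with small differences. Mybl2, whose difference was the largest of the 39 genes, is shown too, though its window holds neither. Each ends 1 base before the annotated start, and capitals mark CHR and CCAAT letters on either strand. They are parts of the scanned windows, so matches further upstream or after the start are not shown. Among these are CHR letters of Ccnb2 at position 5 after its start, and CCAAT letters further upstream in Cdk1, Ube2c and Top2a.
Cdk1 (chr10:69352913-69353052, minus strand): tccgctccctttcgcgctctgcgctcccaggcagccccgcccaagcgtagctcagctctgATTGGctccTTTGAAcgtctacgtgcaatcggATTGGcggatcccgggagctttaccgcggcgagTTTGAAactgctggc
Ube2c (chr2:164769809-164769928, plus strand): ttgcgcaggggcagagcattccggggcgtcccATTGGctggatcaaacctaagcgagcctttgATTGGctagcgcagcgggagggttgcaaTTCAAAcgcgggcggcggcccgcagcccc
Espl1 (chr15:102296213-102296292, plus strand): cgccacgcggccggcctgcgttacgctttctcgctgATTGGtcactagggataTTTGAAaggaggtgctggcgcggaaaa
Cdc20 (chr4:118437344-118437423, minus strand): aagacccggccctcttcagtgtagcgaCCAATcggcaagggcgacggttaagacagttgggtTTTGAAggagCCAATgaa
Top2a (chr11:99024190-99024389, minus strand): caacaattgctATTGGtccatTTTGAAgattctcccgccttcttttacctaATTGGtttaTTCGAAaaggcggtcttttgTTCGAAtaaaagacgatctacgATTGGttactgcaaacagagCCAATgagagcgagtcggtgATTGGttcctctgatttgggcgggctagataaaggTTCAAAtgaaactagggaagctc
Mybl2 (chr2:163054515-163054634, plus strand): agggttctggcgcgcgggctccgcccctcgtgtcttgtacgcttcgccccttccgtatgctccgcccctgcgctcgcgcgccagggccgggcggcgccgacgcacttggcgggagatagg
Mki67 (chr7:135716380-135716579, minus strand): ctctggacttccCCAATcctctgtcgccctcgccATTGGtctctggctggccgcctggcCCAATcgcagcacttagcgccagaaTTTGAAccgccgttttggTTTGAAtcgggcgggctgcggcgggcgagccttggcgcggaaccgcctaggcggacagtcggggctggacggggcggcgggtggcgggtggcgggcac
Ccnb2 (chr9:70421555-70421754, minus strand): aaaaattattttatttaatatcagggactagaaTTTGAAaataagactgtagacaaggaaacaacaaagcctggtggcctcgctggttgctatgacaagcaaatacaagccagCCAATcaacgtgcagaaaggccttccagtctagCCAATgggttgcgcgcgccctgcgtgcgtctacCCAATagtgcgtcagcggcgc
These stretches were picked with the differences known, so they show no relation of letters to differences. Cdk1, Ube2c and Espl1 had differences of 1.498, 1.68 and 1.30, and Cdc20 and Top2a of 0.66 and 0.88, while Mki67 and Ccnb2 had 0.20 and -0.05. Mybl2, with neither CHR nor CCAAT letters in its window, had 2.13. The 21 measured genes with CHR letters had a median difference of 0.88 (from -0.05 to 1.68), and the 9 measured genes with a window and no CHR letters had 0.69 (from 0.10 to 2.13).

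Within the cyclin-CDK engine, the kinase gene and the cyclin A2 gene were higher in Hi and the cyclin B2 gene was not. Cdk1, the kinase that starts mitosis, had a log2 intensity of 12.62 and 12.55 in Hi and 11.08 and 11.09 in Lo. Both pairs of arrays were tight, and the difference was 1.498 ± 0.13 (SE, 2.82-fold, limma adjusted p = 0.0839). Ccna2, whose cyclin acts in S phase and in early mitosis, had 12.10 on both Hi arrays and 10.97 and 11.00 on the Lo arrays. The groups differed by 1.11 ± 0.13, and by 1.56 in its second probe set. Ccnb2, a B-type cyclin found at the Golgi, had 11.39 and 11.46 in Hi and 11.52 and 11.44 in Lo. The 4 arrays lay within 0.13 of each other, with a difference of -0.05 (95% interval -0.43 to 0.32), and 0.04 once the arrays were shifted to 1 median. That interval does not reach the difference of Cdk1 or Ccna2, but the contrast between these genes was not tested. Cks1b and Cks2, small adaptors that help CDKs hold on to phosphorylated substrates, differed by 0.38 and 0.47, and the second probe set of Cks1b by 0.91.

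Of the enzymes that set the phosphorylation of Cdk1, the phosphatase genes and Pkmyt1 differed by 0.69 to 1.36, and Wee1 by 0.28 with an interval that includes 0. The fit over 1 probe set per gene called 0 of these 5 genes, where it called 1.04% of all genes higher. The fit over gene means called 2 of the 5 higher, Cdc25b and Cdc25c, against 1.39% of all genes. The phosphatase gene Cdc25b, which helps to trigger entry, had 11.61 and 11.53 in Hi and 10.42 and 10.57 in Lo. Its groups were well apart (1.07 ± 0.14 SE, limma adjusted p = 0.0975). Cdc25c differed by 0.90 ± 0.13, and by 0.98 in its other probe set. Cdc25a, the phosphatase that also acts at the start of S phase, had 10.40 and 10.56 in Hi and 9.50 and 10.07 in Lo. Its Lo arrays were spread by 0.57, its difference was 0.69 ± 0.25 (SE), and of 2 further probe sets 1 gave 0.72 and 1 gave -0.01. Among the inhibitory kinases Pkmyt1, which sits on membranes, had 8.92 and 8.996 in Hi and 7.32 and 7.87 in Lo, with a difference of 1.36 ± 0.23. Wee1, the nuclear kinase, had 11.53 and 11.55 in Hi and 11.45 and 11.08 in Lo. Its Lo replicate 1 nearly reached the Hi arrays, the difference was 0.28 (95% interval -0.23 to 0.78), and its other probe set gave -0.07.

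Among the mitotic kinases and the chromosomal passenger complex, the kinase genes differed by 1.19 to 1.63 and the other subunits of the complex by 0.18 to 0.75. Mean levels were 9.02 to 10.34 for the kinase genes and 11.95 to 12.43 for the other subunits. Role and signal level thus cannot be told apart here. Aurkb, the catalytic subunit of the complex, had 11.18 and 11.14 in Hi and 9.72 and 9.34 in Lo. The difference of 1.63 ± 0.19 (SE, 3.10-fold, limma adjusted p = 0.0947) was exceeded by that of its other probe set at 1.81. Plk1, a kinase of spindle and cytokinesis, differed by 1.59 ± 0.19, Melk by 1.52 ± 0.29 and Aurka, the kinase of the spindle poles, by 1.19 ± 0.17. The complex has 3 other subunits on the list. Birc5, which encodes survivin, differed by 0.75 ± 0.14. Incenp, the scaffold, had 12.20 and 12.16 in Hi and 11.69 and 11.74 in Lo. Its brightest probe set thus separated the groups by 0.47, while 2 others differed by 0.90 and 1.16. A further 2, both low but above the dim limit, differed by 0.00 and -0.40. In the probe set at -0.40 both Hi arrays were below both Lo arrays, the only 1 of the 82 with that order. Cdca8, which encodes borealin, had 12.22 and 12.11 in Hi and 12.51 and 11.47 in Lo. Lo replicate 1 was the highest of the 4 arrays and Lo replicate 2 the lowest, and the same order held in the 2 further probe sets of Cdca8. The difference of 0.18 ± 0.39 (SE) became 0.70 without Lo replicate 1 and -0.35 without Lo replicate 2.

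**Figure D2:**
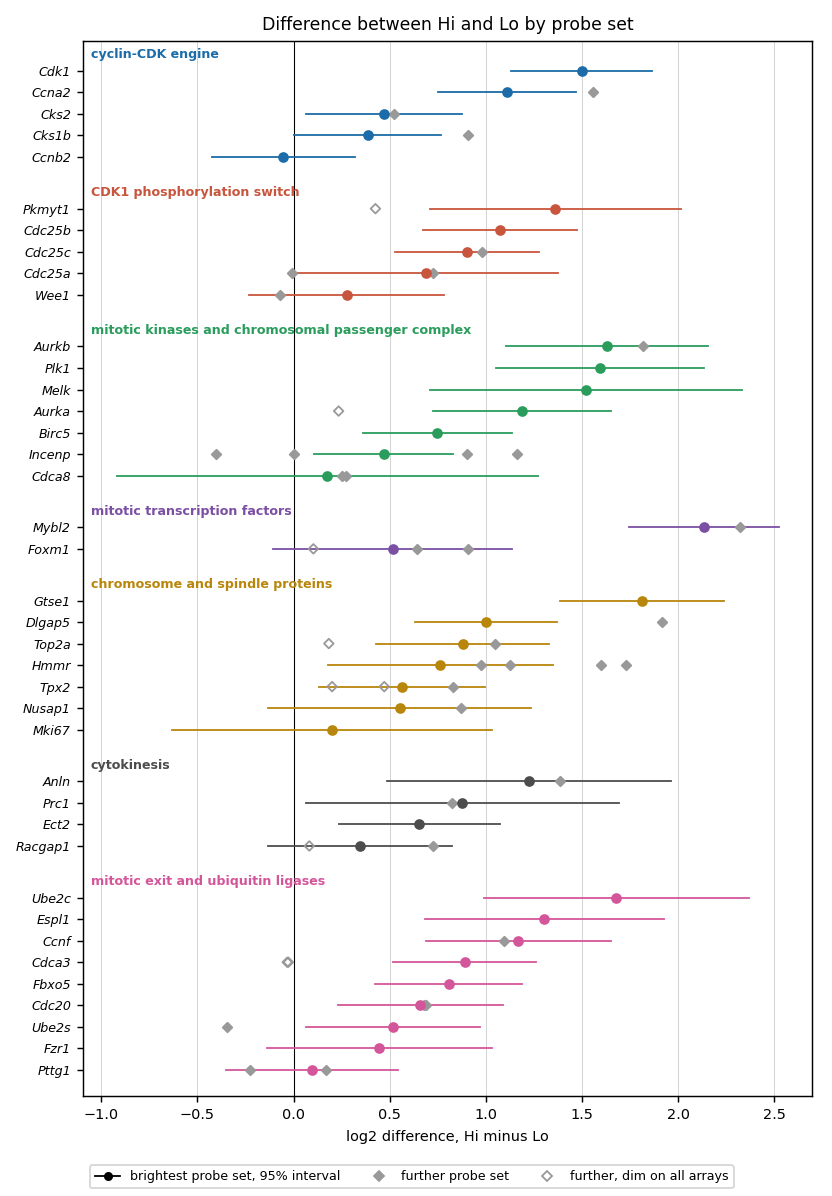
Log2 difference, Hi minus Lo (x axis), of the brightest probe set of each gene (coloured points with the 95% interval of the limma fit) and of its further probe sets (grey diamonds, open where dim on all 4 arrays). Mybl2 lies furthest right at 2.13, and Ccnb2 at -0.05 is the single brightest probe set left of 0.

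Chromosome and spindle proteins ranged from 0.20 to 1.81. Gtse1, a microtubule-binding protein that also restrains p53 in G2, had 8.73 and 8.83 in Hi and 6.86 and 7.07 in Lo. This was the second largest difference of the list (1.81 ± 0.15 SE, 3.51-fold, limma adjusted p = 0.0839). Dlgap5, a spindle protein also known as HURP, differed by 0.999 ± 0.13. Top2a, the topoisomerase that untangles sister chromatids, differed by 0.88 ± 0.16. Hmmr, a spindle protein first described as a hyaluronan receptor, had 5 probe sets with differences between 0.76 and 1.73. Tpx2, which activates Aurora A, differed by 0.56 ± 0.15 and the microtubule bundler Nusap1 by 0.55 ± 0.25. Mki67, the gene of the proliferation marker Ki-67, which coats mitotic chromosomes, had 11.99 and 12.03 in Hi and 12.19 and 11.43 in Lo. As with Cdca8, Lo replicate 1 was above both Hi arrays and Lo replicate 2 below them. The difference was 0.20 (95% interval -0.63 to 1.03), 0.58 without Lo replicate 1 and -0.18 without Lo replicate 2.

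All 4 cytokinesis genes had both Hi arrays above both Lo arrays, against 30% of all genes, with a median difference of 0.77. The fits over 1 probe set per gene and over gene means called 0 of the 4. They called 1.04% and 1.39% of all genes higher. Anln, the furrow scaffold anillin, had 9.01 and 9.12 in Hi and 8.16 and 7.52 in Lo, a difference of 1.22 ± 0.27 (SE, limma adjusted p = 0.152) that its second probe set gave as 1.39. Ect2, which activates RhoA at the furrow, had 11.40 and 11.39 in Hi and 10.85 and 10.63 in Lo, the smallest unadjusted p of the 4 after Anln. Prc1, which bundles the microtubules of the central spindle, differed by 0.88 ± 0.29 and was 0.74 higher in Lo replicate 1 than in Lo replicate 2. Racgap1, a subunit of centralspindlin, had 10.44 and 10.43 in Hi and 9.93 and 10.25 in Lo. Its difference of 0.35 (95% interval -0.13 to 0.83) was the least of the 4, while a dimmer probe set gave 0.72.

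The genes of mitotic exit and of ubiquitin ligases had a median difference of 0.81, with the E2 enzyme of the anaphase-promoting complex at the top and its substrate securin at the bottom. Ube2c, the E2 that starts ubiquitin chains, had 12.50 and 12.48 in Hi and 11.11 and 10.51 in Lo. The Hi arrays were nearly equal and the Lo arrays 0.59 apart, and the difference was 1.68 ± 0.25 (SE, 3.20-fold, limma adjusted p = 0.103). Ube2s, the E2 that extends the chains, had 11.89 and 11.93 in Hi and 11.25 and 11.53 in Lo. This was a difference of 0.52 ± 0.16, against -0.35 in a probe set that was dim on 3 arrays. Of the activators, Cdc20, which acts until anaphase, differed by 0.66 ± 0.15 and by 0.68 and 0.69 in 2 further probe sets. Fzr1, the gene of Cdh1, which acts from late mitosis into G1, differed by 0.45 ± 0.21 (95% interval -0.14 to 1.03). Fbxo5, the gene of the inhibitor Emi1, differed by 0.81 ± 0.14.

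Of the downstream genes Espl1, the protease separase that cleaves cohesin, differed by 1.30 ± 0.22 (SE). Pttg1, the gene of securin, which holds separase in check, had 12.13 and 12.39 in Hi and 12.13 and 12.20 in Lo. The groups overlapped, with a difference of 0.10 (95% interval -0.35 to 0.54), 0.17 and -0.23 in the other probe sets, and -0.04 without Hi replicate 2. Ccnf, an F-box protein that targets substrates of the SCF ligase in G2, differed by 1.17 ± 0.17. Cdca3, also called Tome-1, had 12.28 and 12.34 in Hi and 11.38 and 11.46 in Lo. Its difference was 0.89 ± 0.13, and 2 probe sets that were dim on all 4 arrays gave -0.03 each.

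The 2 Hi arrays were closer to each other in these genes than the 2 Lo arrays were. The median gap between the 2 Hi arrays was 0.06 over the 39 genes, and 0.13 over the 9602 genes at least as bright as the dimmest of them. Those 9602 genes share only this lower bound with the 39 and were not matched to them in level. The part of signal level in these gaps was not tested. Between the 2 Lo arrays the median gap was 0.28, the same as over those 9602 genes. A gap over 0.5 was found in 10 of the 39 genes in Lo, near the 23.5% of the 9602 genes with such a gap in Lo. In Hi it was found in 0 of the 39, and the share of the 9602 genes was not counted. Of these 10, the 6 genes higher in Lo replicate 1 were Cdca8, Mki67, Prc1, Anln, Ube2c and Melk, and the 4 higher in Lo replicate 2 were Nusap1, Cdc25a, Pkmyt1 and Espl1. The Lo arrays thus did not differ by 1 shift of all mitotic genes, and the median of Lo replicate 2 minus Lo replicate 1 was 0.03. The Myc transcript, for comparison, had 12.41 on both Hi arrays and 11.70 and 10.64 on the Lo arrays. Leaving out a single Lo array moved the difference by over 1.5 times in 10 of the 39 genes, and leaving out a Hi array in 3. These counts were not made over all genes, so they show no trait of the mitotic genes.

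**Figure D3:**
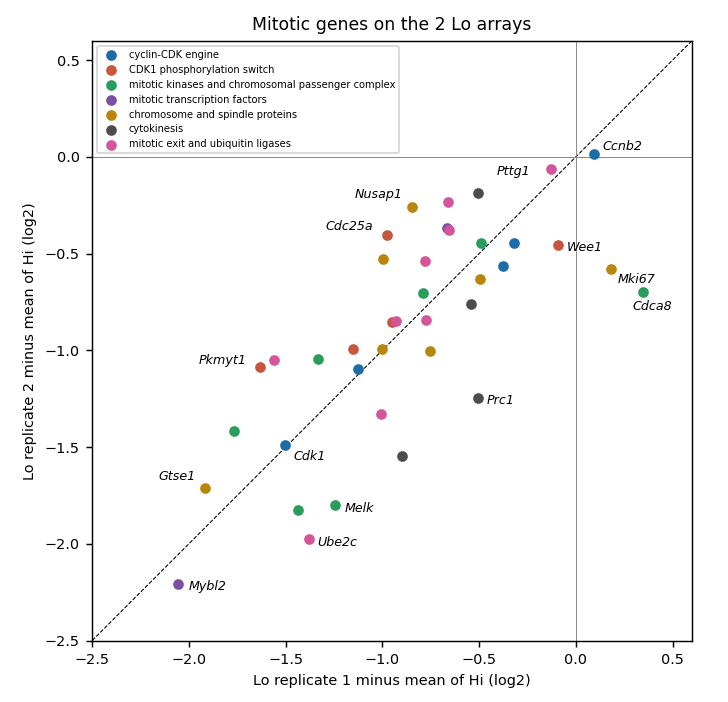
Level of each of 39 mitotic genes in Lo replicate 1 (x axis) and Lo replicate 2 (y axis), each minus the mean of the 2 Hi arrays on the log2 scale; colours give the role and the dashed line equality of the 2 Lo arrays. Most points lie below 0 on both axes, and Cdca8 and Mki67 lie right of 0 and below 0.

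Probe sets of the same gene mostly differed in the same direction but not by the same amount. Of the 39 genes, 23 had over 1 probe set above the dim limit on at least 1 array. In 19 of them (82.6%) the probe set used here was not the one with the largest difference in either direction, against 65.8% of 6436 genes. In 18 of the 23 all probe sets had the same sign; those with mixed signs were Cdc25a, Wee1, Incenp, Pttg1 and Ube2s.

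Genes of the same processes that are not among the 40 were taken from 5 further lists, and 0 of their genes passed limma over all probe sets. The list of the CDK-activating kinase and other entry regulators had a median difference of 0.81 over 10 genes, and in 8 both Hi arrays were above both Lo arrays. The checkpoint kinase gene Chek1 differed by 1.66 ± 0.15 (SE) and the histone kinase gene Haspin by 1.60 ± 0.19, while Cdk7, Ccnh and Mnat1 of the CDK-activating kinase had -0.26, 0.27 and 0.04. Over all genes, 30% were higher and 25.4% lower on both Hi arrays, and the counts of the next 4 lists stand beside those shares. The 14 core subunits of the anaphase-promoting complex had a median of 0.05, with 4 genes higher and 1 lower on both Hi arrays. Anapc15 stood at 0.94 ± 0.14 and Anapc7 at -0.54 ± 0.13. Greatwall and the mitotic phosphatases had a median of 0.04 over 13 genes, with 5 higher and 4 lower. In that list Mastl, the greatwall kinase that restrains the phosphatase PP2A in mitosis, stood at 1.404 ± 0.285, and the phosphatase gene Cdc14b at -1.48 ± 0.34. Furrow and abscission proteins had a median of 0.04 over 15 genes, with 5 higher and 4 lower, led by the citron kinase gene Cit at 1.22 ± 0.16 and the myosin gene Myh10 at 0.98 ± 0.21.

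The DREAM and MuvB subunits, which hold mitotic genes silent in resting cells or help to switch them on, had a median of 0.11 over 11 genes, with 4 higher and 3 lower. The repressor E2f5 had 7.20 and 6.84 in Hi and 8.37 and 8.45 in Lo, a difference of -1.39 ± 0.18 (SE). The pocket protein gene Rbl1 stood at 0.85 ± 0.17 and its relative Rbl2, the form found mainly in resting cells, at -0.68 ± 0.15. Chek1, Haspin and the replication inhibitor gene Gmnn were called higher in the fit over gene means and in the fit over 1 probe set per gene. Cdc14b was called lower in the fit over gene means (limma adjusted p = 0.0363) but not in the other (limma adjusted p = 0.106), and 0 of the other genes on these 5 lists were called in either. The difference between these lists and the 39 mitotic genes was not tested.

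**Figure D4:**
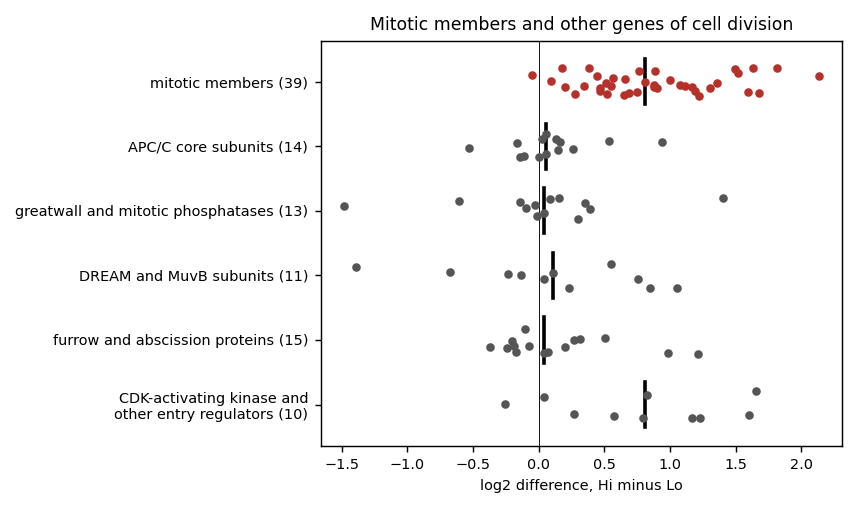
Log2 difference, Hi minus Lo (x axis), of the 39 mitotic genes (red) and of 5 further lists of cell division genes (grey), with 1 point per gene and the median as a black bar. The medians are 0.81 for the mitotic genes and for the entry regulators, and 0.04 to 0.11 for the other 4 lists.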

How the data were processed

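The deposited values are linear intensities from RMA, which the submitters' processing notes name without software or version. The arrays as deposited do not share 1 distribution: their log2 medians were 5.70 and 5.71 in Hi and 5.78 and 5.82 in Lo. The deposited intensities were log2-transformed with no offset. Of 45101 probe sets 64 controls were left out. Symbols came from the platform annotation (34945 probe sets with 1 symbol, 34741 matched by Entrez ID to the GRCm38.p6 gene table), and the brightest probe set by mean represented a gene. Hi minus Lo was fitted over 4 arrays with limma 3.58.1 in R 4.3.3 (constant prior variance, no block, two-sided, Benjamini-Hochberg over 45037 probe sets, call at 0.05; 2 residual and 1.976 prior degrees of freedom); errors are moderated standard errors. The limma fit alone was run on simulated data with planted changes. The check covered the size of the estimated differences and set no requirement on how many changes were called. The dim limit of an array (4.735 to 4.872) is the highest level among 27 probe sets of bacterial RNA, for which the labels record no spike-in.

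The replicate numbers were not taken as pairs, since the labels name nothing shared. The deviations of same-numbered arrays correlated at 0.072 across all probe sets and at 0.332 across the 39 mitotic genes. With 2 arrays a group these values cannot decide whether the samples were paired. All genes of the list may be named; values on every array are given for the smallest and largest p of a role group, for differences below 0 and for genes with a probe set of opposite sign, and for other lists the 2 smallest p. Genes outside this rule were chosen after their values were seen. The list, the roles and the other lists were chosen with earlier results of these data known. Alternatives were other normalizations, filters, probe set rules, variance models, a replicate block and leaving out each array. The number of arrays limits the precision.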

Additional observations from a re-analysis of the deposited data

How the results depend on the processing

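No gene or probe set of the mitotic list was called over the whole table under another normalization, filter or variance model or without any one array. Calls came with fits over fewer features: over 1 probe set per gene limma called 404 of 18193 genes, 6 of them mitotic, and over gene means 528, of which 11 were mitotic; without moderation 1 probe set was called in all, and 0 of the mitotic ones. The median difference of 0.81 became 0.90 with all arrays brought to 1 median, 0.71 with gene means and 0.90 without the probe sets open to cross-hybridization (32 genes), and 0.77 to 0.85 when single arrays were left out. With the replicate block 0 probe sets were called (smallest adjusted p = 0.193) and the median stayed at 0.81. Of the values of single genes under these alternatives 476 kept direction and side of the threshold, 17 came to pass it and 7 changed sign. The last were Ccnb2 at 0.041 with arrays brought to 1 median, Cdca8 at -0.35 (up to 0.70 without Lo replicate 1) and Mki67 at -0.18 (up to 0.58 without Lo replicate 1) without Lo replicate 2, Pttg1 at -0.037 without Hi replicate 2 (up to 0.23 without Hi replicate 1), and 3 genes without the probe sets open to cross-hybridization, which left them dimmer ones: Cdca3 at -0.033, Pttg1 at -0.23 and Ube2s at -0.35. The number of genes with all Hi arrays of a fit above all its Lo arrays was 26 of 32 to 37 of 39. That order is easier to meet where a single array was left out. Its share of all genes was not counted under these alternatives.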
